A study of Mus musculus with 28 samples.

Results

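Mouse mammary cells that express an oncogenic PI3-kinase and were sorted through a luminal gate were compared by the lineage in which the oncogene had been switched on. Arrays were chosen by title alone: 2 of K5PIK luminal cells, collected 10 months after tamoxifen, and 2 of K8PIK luminal cells, collected 8 weeks after tamoxifen, together 4 of the 28 arrays of the study. All 17097 genes with a named probe set were considered, and 13150 passed a filter on dim signal and were tested.

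The K5PIK mice carried K5CREERT2, PIK3CA-H1047R and RosaYFP, and the K8PIK mice carried K8CREERT2, PIK3CA-H1047R and RosaYFP. CREERT2 is a Cre recombinase that acts after tamoxifen, driven here by the keratin 5 promoter of basal cells or the keratin 8 promoter of luminal cells. Recombination starts both the mutant PIK3CA and the yellow fluorescent reporter, so YFP marks the cells and their descendants. Female mice of every group received 3 injections of 5 mg tamoxifen from the age of 4 to 5 weeks, and YFP-positive cells were sorted from digested glands. Control YFP luminal cells came from K8CREERT2/RosaYFP mice at 10 months and at 8 weeks (2 arrays each), so the 10-month control shares the time but not the Cre driver of the K5PIK cells. Basal-gate cells were sorted from K5PIK mice at 10 months and K8PIK mice at 8 weeks, and from K5CREERT2/RosaYFP controls at 10 months and 8 weeks (2 arrays each), and tumour cells came from K5PIK (3 arrays) and K8PIK mice (7 arrays). A further 2 arrays of tumours from K8PIK mice with p53flox/flox alleles entered the tumour fit, where they add to the estimate of spread and to the filter. K5PIK luminal cells were thus compared with K8PIK luminal cells across a difference of driver and of time after tamoxifen, and these cannot be told apart within the pair of groups. Whether replicates are separate animals is not given in the labels, and the spread behind every p-value is therefore that of the samples, which may be technical. As RNA was measured in bulk, fewer cells of a type and less RNA per cell cannot be told apart either.

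The mammary epithelium has an inner luminal layer, whose cells express keratins 8 and 18 and either hormone receptors or progenitor and milk genes, and an outer basal layer of contractile myoepithelial cells with keratins 5 and 14. In the adult gland each layer is normally kept up by its own cells. PIK3CA encodes the catalytic subunit of PI3-kinase, which relays growth factor signals to AKT, and the H1047R change makes it active without them. A K5-driven oncogene therefore starts in the basal layer, and YFP-positive cells in the luminal gate of such a gland are labelled cells that have the luminal surface profile.

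Lineage markers of the gate were read first. All 16 luminal markers lay above the 40th percentile of the array on both arrays of either group, with a mean level of 10.2 and 10.2 on the K5PIK arrays, against 10.4 and 10.4 on the K8PIK arrays (log2 scale throughout, on which 1 unit is a 2-fold difference). The 16 basal markers averaged 7.24 and 7.15 in K5PIK luminal cells, against 7.97 and 7.14 in K8PIK luminal cells, 6.26 and 6.47 in 10-month YFP cells and 6.46 and 6.98 in 8-week YFP cells. The same percentile was passed on both arrays by 15 of these basal markers in K5PIK and by 16 in K8PIK luminal cells. Passing it therefore does not tell luminal from basal cells. Of 14 immune markers 8 were above that percentile in each group, with means of 4.89 and 4.45 in K5PIK and 4.51 and 4.22 in K8PIK cells, and the pan-leukocyte gene Ptprc was not above it. Fibroblast markers averaged 4.91 and 4.31 in K5PIK against 5.07 and 4.53 in K8PIK cells (4 of 9 above it in each), and endothelial markers 5.14 and 4.55 against 5.69 and 4.93. The 2 genes of the erythroid list on the array averaged 9.31 and 9.41 in K5PIK and 8.23 and 8.22 in K8PIK cells. In YFP cells they averaged 7.56 and 7.91 at 10 months and 9.53 and 9.17 at 8 weeks. The globin gene Hba-a1 was the brighter of them, at 9.63 to 11.93 on the 8 luminal arrays. The part of these genes in other differences was not tested. The K5PIK luminal replicates stood furthest apart of all sorted groups, with a correlation of 0.960 across genes and 902 genes more than 1 unit apart, against 0.982 and 301 genes for K8PIK luminal cells.

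Between the origins, 1080 genes differed at an adjusted p under 0.05 (limma, fitted over the 16 arrays of sorted cells), which is 8.21% of the genes tested. K5PIK luminal cells were higher for 282 genes (2.14%) and lower for 798 (6.07%), with median differences of 0.98 and -0.96, while the median of all genes tested was -0.08. The lean towards lower genes depended on scaling: after quantile normalization 750 genes were called, 389 higher and 361 lower, so that 51.9% of calls were higher in K5PIK cells, against 26.1% with the values as deposited, and 616 genes were called both ways. Genes that were lower in K5PIK cells had a median level of 6.20 there and 7.26 in K8PIK cells, and genes that were higher had 6.73 and 5.38. The groups did not overlap in any of the 1080 genes called, nor in 49.8% of all genes tested. The spread between arrays was taken from all 8 sorted groups; when it was estimated from the 4 luminal PIK arrays alone no gene was called, with 2090 at an unadjusted p under 0.05. Leaving out K8PIK replicate 1 left 323 calls (127 higher) and leaving out K8PIK replicate 2 left 302 (62 higher). Of 71 called genes picked by the naming rule, 26 were called with any 1 of the 4 arrays left out: among them Krt5, Krt14, Col17a1, Il24, Inhba, Csf1, Klk6, Nr4a2, Gem, Usp2 and Fbn2. Differences below are K5PIK minus K8PIK luminal cells, ± is the standard error of the fit, and n is 2 arrays in each group.

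**Figure D1:**
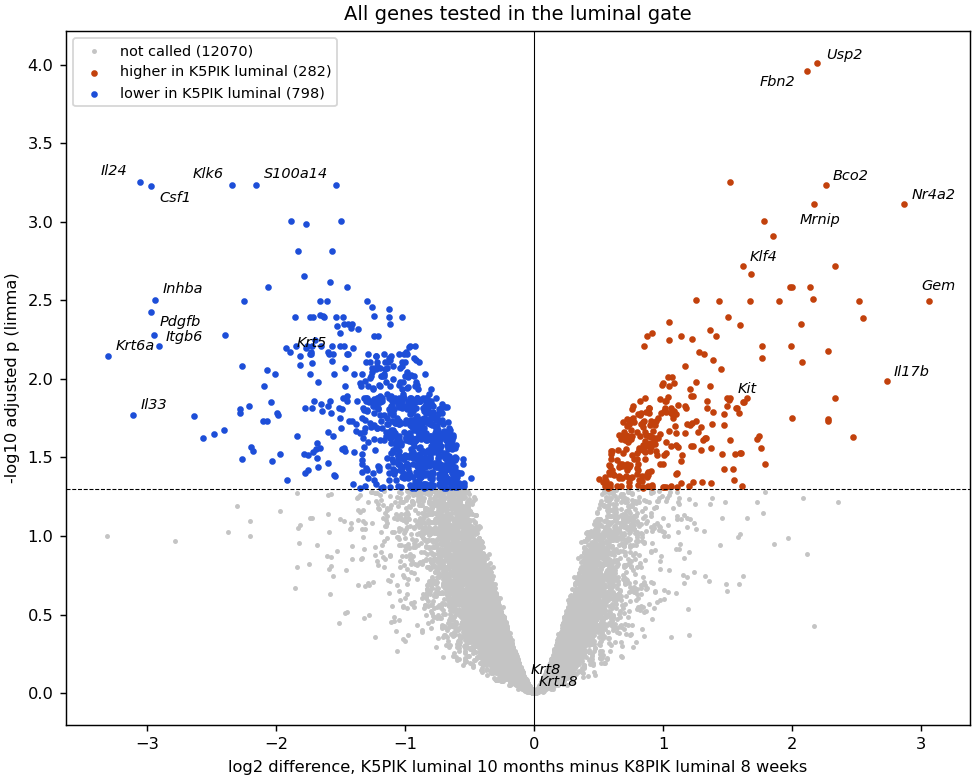
Difference between K5PIK luminal cells at 10 months and K8PIK luminal cells at 8 weeks (log2, horizontal) against the adjusted p of the limma fit (minus log10, vertical) for all 13150 genes tested. Coloured points are the 282 genes higher and the 798 genes lower in K5PIK cells at an adjusted p under 0.05, and the lower side holds more of them.

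The keratins of the basal layer were lower in luminal-gate cells of basal origin than in those of luminal origin, and in both they were above normal luminal cells. Krt5 (Entrez gene 110308), the basal type II keratin, read 8.66 and 8.69 on the K5PIK arrays, against 11.16 and 9.99 on the K8PIK arrays, with 6.90 and 7.37 in 10-month and 7.45 and 8.09 in 8-week YFP luminal cells. K8PIK cells were highest and K5PIK cells next, and no group overlapped another. Krt5 thus differed by -1.90 ± 0.32 between the origins (adjusted p = 0.00677), and by 1.54 between K5PIK and 10-month YFP cells (adjusted p = 0.016). Its partner Krt14 (16664) read 9.17 and 8.43 in K5PIK, against 11.18 and 10.05 in K8PIK cells, a difference of -1.82 ± 0.31 (adjusted p = 0.00719). Col17a1 (12821), the hemidesmosome collagen that ties basal cells to the basement membrane, read 7.08 and 6.73 against 9.85 and 8.04, a difference of -2.04 ± 0.41 (adjusted p = 0.0141). In these 3 genes K8PIK replicate 1 was the highest array, yet all of them were called with any 1 of the 4 arrays left out.

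Of the 16 basal and myoepithelial genes tested, 6 fell and none rose, with a median of -0.49. The 6 were genes of keratin filaments and of adhesion to laminin: beside the 3 above, the laminin-332 chain gene Lamb3 differed by -1.20, the integrin gene Itgb4 by -0.89 and its partner Itga6 by -0.68. The contractile genes Acta2 and Myh11 of the same list did not pass and lay on the other side of 0. Acta2, smooth muscle actin, read 7.95 and 8.74 in K5PIK against 8.03 and 6.88 in K8PIK cells (0.89, adjusted p = 0.272), and the smooth muscle myosin gene Myh11 read 8.57 and 8.53 against 7.86 and 6.05 (1.59, adjusted p = 0.0976). Trp63, the p63 factor that keeps basal cells basal, read 5.55 and 6.19 against 6.97 and 6.17 (-0.70, adjusted p = 0.183), with its probe sets not all alike. Without K8PIK replicate 1 the list had 3 genes lower and 1 higher, with a median of -0.18.

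**Figure D2:**
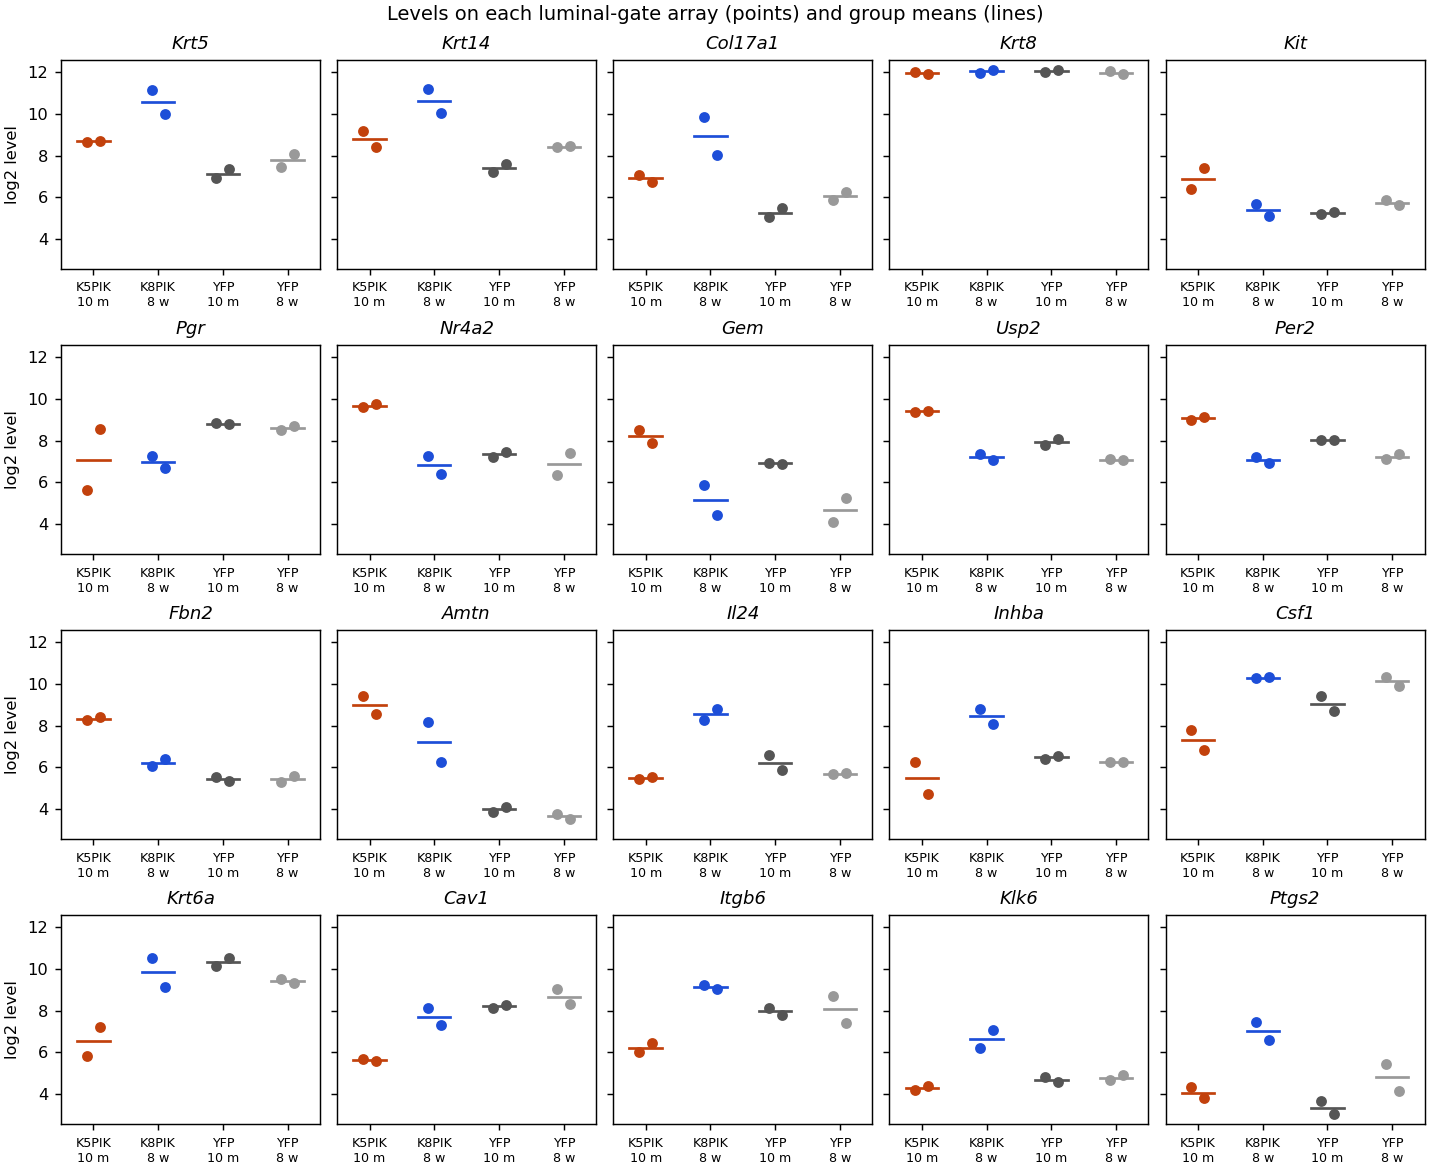
Level (log2, vertical) of 20 named genes on each of the 8 luminal arrays, in K5PIK cells at 10 months, K8PIK cells at 8 weeks, and YFP cells at 10 months and at 8 weeks. Points are arrays and lines are group means of 2 arrays; Krt5 and Krt14 sit highest in K8PIK cells, Krt6a and Cav1 lowest in K5PIK cells, and Pgr differs most between the K5PIK replicates.

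Luminal keratins did not pass the test. Krt8 read 11.998 and 11.91 in K5PIK against 11.98 and 12.09 in K8PIK cells (-0.08, adjusted p = 0.82), and Krt18 differed by -0.02. Among 16 luminal genes Grhl2, a factor of epithelial junctions, was the one that rose (0.86 ± 0.21, adjusted p = 0.0267), and none fell. It was not called without K5PIK replicate 2 or without either K8PIK replicate (adjusted p up to 0.125). None of 10 hormone-sensing genes passed (limma; none at an unadjusted p under 0.05 either), and here the K5PIK replicates disagreed. The progesterone receptor gene Pgr read 5.62 and 8.54 in K5PIK cells, against 7.24 and 6.68 in K8PIK cells and between 8.53 and 8.83 on the 4 YFP arrays. K5PIK replicate 1 was thus the lowest luminal array and replicate 2 lay close to the normal ones; the difference was 1.58 without replicate 1 and -1.34 without replicate 2. The pioneer factor gene Foxa1 read 7.13 and 8.38 against 7.55 and 7.30, and the oestrogen receptor gene Esr1 read 8.51 and 9.69 against 9.02 and 8.96, with the same replicate lower.

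Of 10 luminal progenitor genes 1 rose and 1 fell. Kit (16590), the receptor for stem cell factor that marks luminal progenitors, read 6.41 and 7.39 in K5PIK cells, against 5.67 and 5.09 in K8PIK, 5.20 and 5.29 in 10-month YFP and 5.85 and 5.61 in 8-week YFP cells. Both K5PIK arrays were above every other luminal array, and the difference was 1.52 ± 0.30 (adjusted p = 0.0132; 1.23 and adjusted p = 0.087 without K8PIK replicate 2). Elf5, the alveolar factor, did not pass (0.09), and Sox9 fell (-0.60, adjusted p = 0.0488), with -0.87 in a second probe set and 0.14 in another, dim one. Amtn, an enamel matrix gene, was high in both oncogene groups, at 9.42 and 8.56 in K5PIK and 8.16 and 6.24 in K8PIK cells, against 3.53 to 4.10 on the 4 YFP arrays. It was higher in K5PIK cells by 1.79 ± 0.47 (adjusted p = 0.0348), a call that was lost without K5PIK replicate 1 (1.36, adjusted p = 0.158) or without K8PIK replicate 2 (0.84, adjusted p = 0.214).

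Secreted cytokines and growth factors were among the genes with the largest falls in cells of basal origin. Il24 (93672), an interleukin of epithelial stress, read 5.46 and 5.51 in K5PIK cells, against 8.27 and 8.81 in K8PIK cells, and 5.67 to 6.59 on the YFP arrays. Only the K8PIK arrays were raised, and the difference was -3.06 ± 0.30 (adjusted p = 0.000557). Inhba (16323), the activin A subunit of the TGF-beta family, had the same order, with 6.27 and 4.74 in K5PIK, 8.79 and 8.10 in K8PIK and 6.26 to 6.55 in YFP cells (-2.94 ± 0.40, adjusted p = 0.00316). A second, dim probe set of Inhba gave 0.16. Csf1 (12977), the macrophage growth factor, had another pattern: it read 7.81 and 6.85 in K5PIK, 10.29 and 10.32 in K8PIK, 9.40 and 8.69 in 10-month YFP and 10.34 and 9.92 in 8-week YFP cells. Its K5PIK level lay below all 6 other luminal arrays (-2.97 ± 0.31, adjusted p = 0.000592).

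Pdgfb, the platelet-derived growth factor B chain, read 5.47 and 5.17 against 8.20 and 8.39 (-2.97 ± 0.43, adjusted p = 0.00373). Il33 (77125), an alarmin cytokine, was dim in K5PIK cells at 2.89 and 3.97, against 7.49 and 5.60 in K8PIK cells (-3.11 ± 0.67, adjusted p = 0.0169), and its call was lost without K5PIK replicate 1 (-2.57, adjusted p = 0.075) or without K8PIK replicate 1 (-2.17, adjusted p = 0.118). Ptgs2, the inducible prostaglandin synthase COX-2, read 4.32 and 3.81 against 7.44 and 6.59 (-2.95, adjusted p = 0.00523). These genes shared a level close to or below normal luminal cells in the K5PIK group. In the list of 16 epithelial cytokines and chemokines 3 fell and 1 rose, with a median of -0.22. The gene that rose was Il17b, a cytokine of the IL-17 family, at 7.86 and 9.11 in K5PIK against 5.93 and 5.58 in K8PIK cells and 4.71 to 6.48 in YFP cells (2.73 ± 0.51, adjusted p = 0.0104; 2.56 and adjusted p = 0.064 without K8PIK replicate 2). Its basal-gate level, 10.28 and 10.48 in K5PIK and 10.32 and 9.93 in K8PIK cells, was above either.

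Ligands of the EGF receptor fell too, 3 of 12 genes of that family with a median of -0.29. Epgn, which encodes epigen, read 4.20 and 4.77 in K5PIK, against 8.01 and 5.93 in K8PIK and 7.46 to 9.42 in YFP cells (-2.48 ± 0.58, adjusted p = 0.0224). Tgfa differed by -1.84 and Btc, betacellulin, by -1.10. The family had no call left without K8PIK replicate 1. Of 17 Wnt genes, Wnt5b (-1.56) and Wnt5a (-1.34), ligands of non-canonical Wnt signalling, fell, and Lgr4, an R-spondin receptor, rose (1.56). Wnt5a was called in none of the 4 fits with 1 luminal PIK array left out (adjusted p up to 0.231) and Lgr4 in 1 (up to 0.21). Of 11 activin and TGF-beta ligand genes Inhba and Bmp7 (-0.72, not in all of its probe sets) fell and the decoy receptor gene Bambi rose (1.02), while in the mesenchymal list of 13 the ligand genes Tgfb3 (1.61) and Tgfb2 (-1.40) moved in opposite directions. Bambi was called in none of those 4 fits (adjusted p up to 0.245) and Bmp7 in 1. Among 14 Notch genes the target Hey1 rose (1.76) and none fell.

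Of 12 genes of squamous and stressed epithelium 4 fell in K5PIK cells, with a median of -0.71. Krt6a (16687), a wound-induced keratin that luminal progenitors also express, read 5.85 and 7.21 in K5PIK cells, against 10.51 and 9.15 in K8PIK, 10.15 and 10.53 in 10-month YFP and 9.50 and 9.31 in 8-week YFP cells. Both K5PIK arrays lay below the other 6 (-3.31 ± 0.56, adjusted p = 0.00714; adjusted p = 0.054 without K8PIK replicate 1). Klk6 (19144), a secreted kallikrein protease, was above the YFP arrays in K8PIK cells and below them in K5PIK cells. It read 4.22 and 4.38 in K5PIK, 6.22 and 7.06 in K8PIK and 4.56 to 4.89 in YFP cells (-2.35 ± 0.24, adjusted p = 0.000584). The lower K5PIK level did not pass against 10-month YFP cells (-0.38, limma adjusted p = 0.375). Krt16 (-2.41), Klk7 (-0.90) and, outside the list, Klk10 (-2.57) also fell. Klk6 was the 1 call of the list left without K8PIK replicate 1. S100a14, a calcium-binding protein of epithelia, read 3.96 and 3.92 against 6.09 and 6.10 (-2.15 ± 0.22, adjusted p = 0.000584).

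Single genes of matrix adhesion and turnover were among the falls. Itgb6, the epithelial integrin subunit that binds latent TGF-beta, read 6.00 and 6.43 in K5PIK, 9.22 and 9.03 in K8PIK and 7.42 to 8.70 in YFP cells (-2.91 ± 0.47, adjusted p = 0.00619). Has2, a hyaluronan synthase, differed by -2.64, the urokinase gene Plau by -2.03 and the metalloprotease inhibitor gene Timp1 by -1.76. Plau and Timp1 were 2 lower genes of 14 matrix proteases and inhibitors, with none higher, 7 differences above 0 and a median of -0.0033, and no member was called lower without K5PIK replicate 2, without K8PIK replicate 1 or after quantile normalization. Of 14 tight junction genes 1 fell, Cldn1 (-1.79, and -2.49 in its second probe set), and no member was called without either K8PIK replicate. Against these, Fbn2 (14119), the microfibril protein fibrillin 2, rose: it read 8.25 and 8.42 in K5PIK, 6.05 and 6.38 in K8PIK and 5.29 to 5.57 in YFP cells (2.11 ± 0.17, adjusted p = 0.00011). With Col5a2 (1.15) it made 2 genes higher and none lower among 19 collagen and matrix genes, whose median was 0.00.

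Immediate early genes were among the rises in K5PIK cells. Of 13 AP-1 and immediate early genes tested 6 rose and none fell, all 13 differences were above 0, and the median was 0.63. Klf4, a zinc-finger factor of epithelial differentiation, rose most, at 10.52 and 10.77 in K5PIK against 9.39 and 8.67 in K8PIK cells (1.62 ± 0.20, adjusted p = 0.00192). Nr4a1 (1.55), Fos (1.08), Atf3 (1.02), Egr1 (0.89) and Fosb (0.88) followed. Fos stood at 10.93 and 11.52 in K5PIK, 10.10 and 10.19 in K8PIK, 11.09 and 11.28 in 10-month YFP and 10.38 and 10.66 in 8-week YFP cells, so the K5PIK arrays lay on either side of normal cells of their time. These genes also respond to tissue digestion and sorting, whose part was not tested. The number called was 2 without K5PIK replicate 2, without K8PIK replicate 1 or without K8PIK replicate 2.

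**Figure D3:**
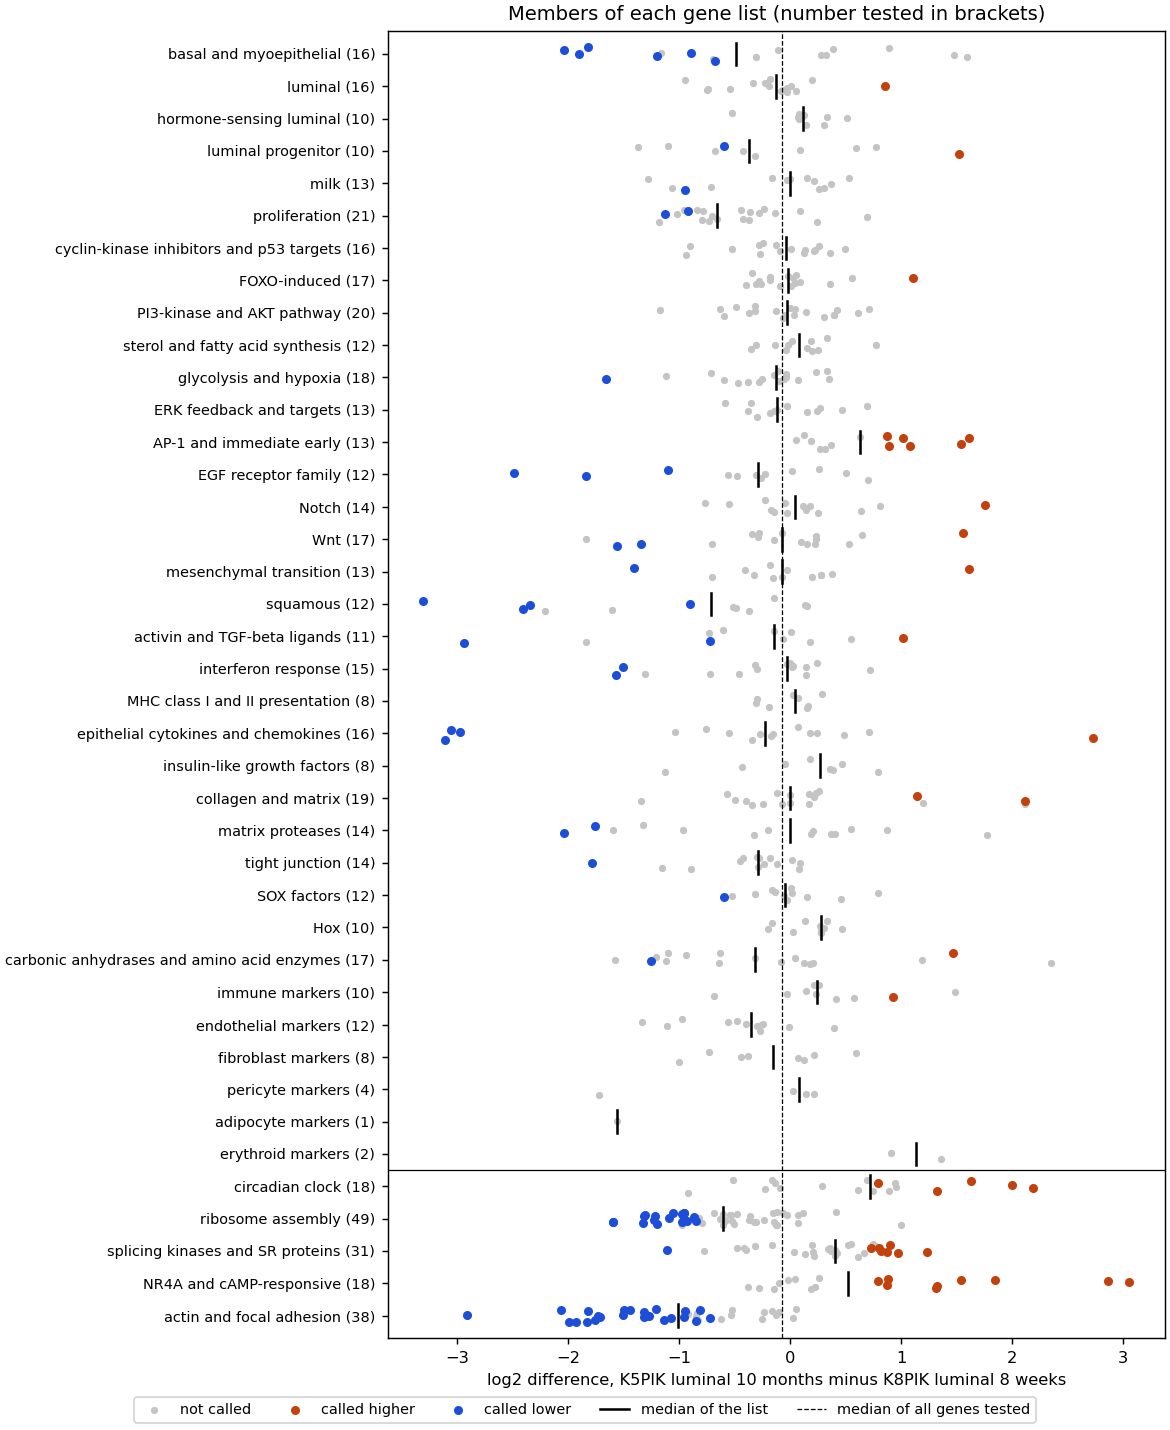
Difference between K5PIK and K8PIK luminal cells (log2, horizontal) for each tested member of 35 gene lists and, below the line, of 5 lists written after values had been seen. Black bars are list medians and the dashed line is the median of all genes; the AP-1 list lies wholly above 0, and 36 of 38 actin and focal adhesion genes lie below it.

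Nr4a2 (18227), an orphan nuclear receptor induced by cyclic AMP, was among the genes with the largest rises. It read 9.61 and 9.76 in K5PIK, against 7.24 and 6.39 in K8PIK, 7.23 and 7.46 in 10-month YFP and 6.36 and 7.38 in 8-week YFP cells. Its K5PIK arrays were above the other 6 by more than 2 units (2.87 ± 0.31, adjusted p = 0.000774), although 2 of its 5 probe sets gave 0.17 and -0.24. Gem (14579), a small GTPase that limits voltage-gated calcium channels, read 8.52 and 7.90 in K5PIK, 5.86 and 4.44 in K8PIK, 6.94 and 6.90 in 10-month YFP and 4.10 and 5.26 in 8-week YFP cells (3.06 ± 0.43, adjusted p = 0.00319). Both 10-month groups were thus above both 8-week groups. In a list of 18 NR4A and cyclic AMP-responsive genes, written after these values were seen, 9 rose and none fell (median 0.53). Nr4a3 in it read 8.34 and 8.37 in K5PIK against 6.75 and 6.26 in K8PIK cells (1.85 ± 0.22, adjusted p = 0.00123). Without K8PIK replicate 2 the list had 4 calls, and without K5PIK replicate 2 it had 5.

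Some genes of the circadian clock rose in K5PIK cells. Usp2 (53376), a deubiquitinase with a strong daily rhythm, read 9.39 and 9.42 in K5PIK, against 7.37 and 7.06 in K8PIK, 7.79 and 8.08 in 10-month YFP and 7.10 and 7.06 in 8-week YFP cells (2.19 ± 0.16, adjusted p = 9.74e-05, the lowest of all genes). A list of 18 clock genes, written after the values were seen, had 5 genes called higher and none lower, with 12 differences above 0, 6 below and a median of 0.72. Per2, a repressor of the clock loop, read 9.0 and 9.14 in K5PIK, 7.21 and 6.92 in K8PIK, 8.04 and 8.01 in 10-month YFP and 7.10 and 7.36 in 8-week YFP cells (2.00 ± 0.27, adjusted p = 0.0026). The 10-month YFP arrays lay between the K5PIK and the 8-week arrays. Cry2 (1.63), Nfil3 (1.33) and Per1 (0.80) rose as well. The labels give no hour of collection, so its part was not tested. Without K5PIK replicate 2 the clock list had 2 genes higher and 1 lower, and without K8PIK replicate 2 it had 2 higher.

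The promoter of Per1 is shown because Per1 was 1 of the 5 clock genes that rose and it holds an E-box, the CACGTG element that clock factors bind. The stretch is from the RefSeq-based promoter sequences of GRCm38.p6, plus strand, chr11:69098723-69098848, with the E-box in capitals at -166 from the gene start.
Per1: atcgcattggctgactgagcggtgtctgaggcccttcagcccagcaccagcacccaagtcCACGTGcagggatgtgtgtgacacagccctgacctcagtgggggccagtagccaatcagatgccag
The promoter windows around gene starts were searched on both strands for CACGTG, for the cyclic AMP response element TGACGTCA and for the AP-1 element TGACTCA. None of the 3 motifs contains another. A promoter was held for 211 of the 282 higher and 644 of the 798 lower genes. CACGTG was in 9.0% of higher, 11.5% of lower and 11.2% of all tested genes with a promoter, TGACGTCA in 3.32%, 2.95% and 3.31%, and TGACTCA in 5.69%, 5.28% and 5.10%. Over all 27025 promoters the shares were 8.09% for CACGTG, 2.03% for TGACGTCA and 5.95% for TGACTCA.

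Other genes with large rises belonged to no list. Pygm, muscle glycogen phosphorylase, read 7.91 and 6.63 in K5PIK against 4.81 and 4.62 in K8PIK cells (2.55 ± 0.38, adjusted p = 0.00409). Pdk4, the kinase that shuts pyruvate dehydrogenase, read 8.74 and 8.98 against 7.53 and 5.64 (2.28 ± 0.50, adjusted p = 0.0181), with 8.80 and 8.48 in 10-month and 5.68 and 5.93 in 8-week YFP cells, so it was high in both 10-month groups. Bco2, a mitochondrial carotenoid-cleaving enzyme, read 7.08 and 6.31 against 4.40 and 4.48 (2.26 ± 0.23, adjusted p = 0.000584). Hpca, a neuronal calcium sensor (2.51), Prph, an intermediate filament of neurons (2.33), Ctsw, a lymphocyte cathepsin (2.16), and Alox12e, an epidermal lipoxygenase (2.28), rose too. The B cell gene Cd79a was the 1 of 10 immune markers tested that rose (0.92 ± 0.21, adjusted p = 0.0213), while the T cell gene Cd3e read 6.03 and 3.42 on the K5PIK arrays.

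Actin and focal adhesion genes were gathered into a list after the values were seen, and 24 of its 38 fell, none rose and the median was -1.01. Cav1, the caveolae coat protein, read 5.70 and 5.59 in K5PIK, against 8.12 and 7.30 in K8PIK, 8.13 and 8.29 in 10-month YFP and 9.06 and 8.30 in 8-week YFP cells (-2.07 ± 0.27, adjusted p = 0.0026). Its K5PIK arrays lay below every other luminal array. Fhl2 (-1.93) and Fblim1 (-1.83), LIM proteins of focal adhesions, the tropomyosin gene Tpm2 (-1.51) and the membrane-actin linker gene Msn, moesin (-1.44), fell with it. The count was 13 without K5PIK replicate 2, 9 without K8PIK replicate 1 and 14 without K8PIK replicate 2. Of 49 ribosome assembly genes, also listed afterwards, 18 fell and none rose (median -0.60). Gnl3l, a nucleolar GTPase, read 6.08 and 6.46 against 8.19 and 7.55 (-1.60 ± 0.27, adjusted p = 0.00677), and Utp23 (-1.23) and Dkc1 (-0.93), factors of ribosomal RNA processing, fell. The count was 3 without K8PIK replicate 1, 5 without K8PIK replicate 2, 10 without K5PIK replicate 2 and 7 after quantile normalization. Of 31 splicing kinases and SR proteins in another such list 7 rose, among them Rbm39 (1.23) and Clk1 (0.97), and 1 fell, Srsf1 (-1.11), with a median of 0.40. The number that rose was 2 without K5PIK replicate 1 and 1 without either K8PIK replicate.

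Proliferation genes had a median of -0.66 over 21 genes, with the replication helicase genes Mcm2 (-1.13) and Mcm3 (-0.92) called lower. This rested on single K8PIK arrays: the median was -1.24 with 7 genes lower without K8PIK replicate 1, and 0.03 with none called without K8PIK replicate 2. Mki67, the proliferation antigen, read 4.32 and 4.98 in K5PIK against 4.24 and 6.38 in K8PIK cells and did not pass. Between 10-month and 8-week YFP luminal cells the proliferation list had a median of -1.03. There 20 of its 21 genes lay below 0 and none was called, so lower values at 10 months were also seen without the oncogene. Pik3ca itself read 7.35 and 7.34 against 7.66 and 7.77 (-0.37, adjusted p = 0.183); its probe sets disagreed and the files do not say whether they detect the mutant transcript.

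Several pathways had few or no calls. No gene passed among 20 PI3-kinase and AKT pathway genes, 16 cyclin-kinase inhibitors and p53 targets, 12 sterol and fatty acid synthesis genes, 13 ERK feedback genes, 8 genes of MHC presentation, 8 of insulin-like growth factors and 10 Hox genes. At an unadjusted p under 0.05 stood 4 of the PI3-kinase and AKT genes, 2 each of the p53 and ERK lists, 1 each of the sterol, growth factor and Hox lists and none of the MHC genes, beside 3318 of all genes. Of 17 FOXO-induced genes the muscle ubiquitin ligase gene Fbxo32 rose (1.10, adjusted p = 0.0486), a call lost with any 1 of the 4 arrays left out. Of 18 glycolysis and hypoxia genes the oxygen sensor gene Egln3 fell (-1.66). Of 15 interferon genes Usp18 (-1.57) and Rsad2 (-1.50) fell, and of 13 milk genes the lipid droplet gene Plin2 fell (-0.95). Over the 35 lists together, 18 of 438 tested members rose (4.11%) and 32 fell (7.31%), beside 2.14% and 6.07% of all genes tested. A list with 1 fall among 13 to 18 genes is thus near the share of all genes.

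The time after tamoxifen was read from normal cells. YFP luminal cells at 10 months and at 8 weeks, which share no array with the PIK groups, differed in 8 genes (0.0608% of those tested; 1227 at an unadjusted p under 0.05). Igf2, insulin-like growth factor 2, was 1 of 4 genes higher at 10 months (0.0304%), by 2.46, with Hepacam2 (1.83), Cntn1 (1.57) and Akr1c13 (1.31), while Cyp1b1 (-2.31), Sox10 (-1.90), Mex3a (-1.63) and Arrdc3 (-1.56) were the 4 lower (0.0304%). Igf2 read 5.13 and 4.30 in K5PIK cells, against 8.13 and 8.39 in YFP cells of the same time, so its 10-month level was not shared by the oncogene cells (-3.54, adjusted p = 0.0004). Sox10, a factor of luminal progenitors and basal cells, read 9.15 and 8.81 in K5PIK, 9.27 and 9.33 in K8PIK, 7.47 and 7.02 in 10-month YFP and 8.99 and 9.30 in 8-week YFP cells. Across the 13150 genes the origin and time differences correlated at 0.272, as a description of arrays that share a platform and time points. Of the 1080 genes called between the origins, 796 (73.7%) had the same sign over time in normal cells. They were 193 of the 282 higher and 603 of the 798 lower genes, and the median over time of all genes was -0.04. The same-sign share over all genes was not computed. In both contrasts 4 genes were called, which is 0.370% of the origin calls and 50.0% of the time calls.

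**Figure D4:**
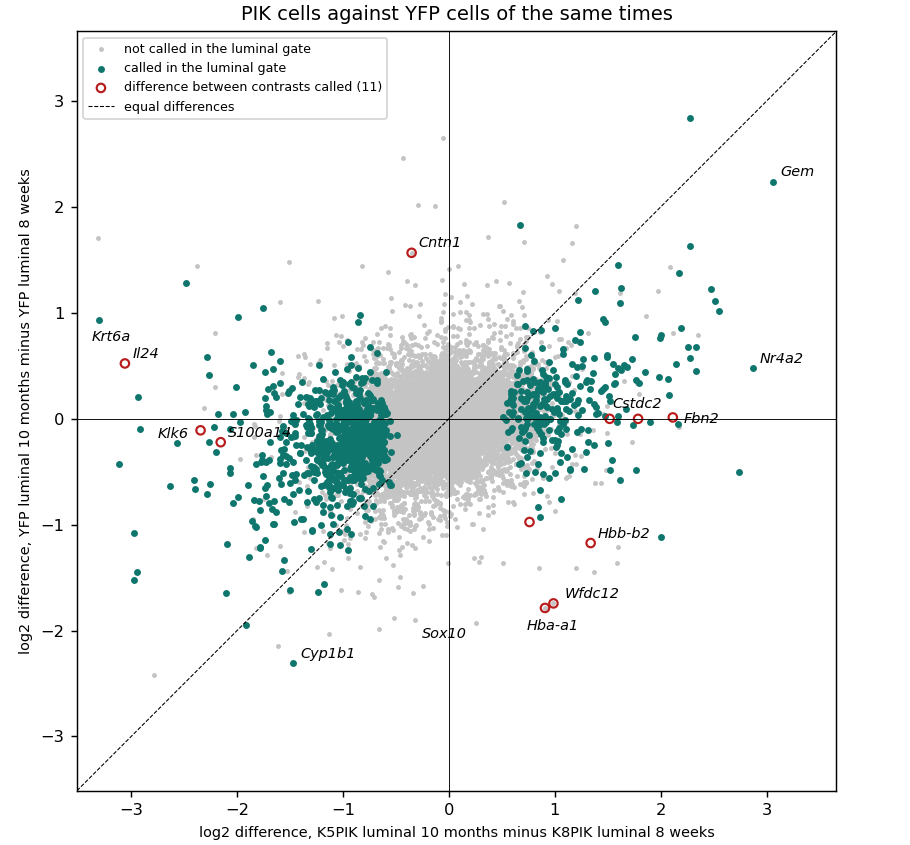
Difference between K5PIK and K8PIK luminal cells (log2, horizontal) against the difference between 10-month and 8-week YFP luminal cells (log2, vertical) for the genes tested. The 11 circled genes are those whose 2 differences differ from each other in the fit, and they include Il24 and Fbn2.

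The difference between these differences was tested in the same fit and passed for 11 genes (0.0837%), 7 above 0 (0.0532%) and 4 below (0.0304%). Il24 gave -3.58 ± 0.42 (adjusted p = 0.00912) and Fbn2 gave 2.10 ± 0.24 (adjusted p = 0.00912), which is to say that in normal cells neither had a change over time of the size seen between the origins. Klk6 (-2.24) and S100a14 (-1.93) were of that kind as well. Cntn1 (-1.92) was higher at 10 months in normal cells and differed by -0.35 between the origins, without passing. The globin genes Hba-a1 (2.69) and Hbb-b2 (2.51) were included, along with Wfdc12 (2.73), Cstdc2 (1.79), Nfe2l3 (1.74) and Cacng5 (1.52). Cacng5 read 4.89 and 4.98 in K5PIK luminal cells and at most 3.84 on the other sorted arrays. It thus passed the dim filter only through the group in which it was high. Hba-a1 was lowest in the 10-month YFP cells, whereas Hbb-b2 had a mean of 9.79 in K8PIK and 9.90 in 10-month YFP cells. The time change was measured in K8CREERT2 cells without the oncogene, so driver and time in oncogene cells cannot be told apart by this test. It had no call without YFP 10-month replicate 1, 1 without its replicate 2, 138 without K5PIK replicate 1 and 57 without K5PIK replicate 2.

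Each oncogene group was also set beside the YFP cells of its own time. K5PIK cells differed from 10-month YFP cells in 841 genes (6.4%), 273 higher (2.08%) and 568 lower (4.32%), and K8PIK cells from 8-week YFP cells in 46 genes (0.35%), 19 higher (0.144%) and 27 lower (0.205%). These comparisons share arrays with the origin comparison, and K5PIK cells also differ from their YFP cells by Cre driver, so they are given only as values side by side. Krt5 differed by 1.54 in K5PIK and 2.81 in K8PIK cells, Col17a1 by 1.65 and 2.90, and Amtn by 5.01 and 3.55, each on the same side in both. Il24 differed by -0.74 in K5PIK (adjusted p = 0.161) and 2.84 in K8PIK cells (adjusted p = 0.00175). Fbn2 differed by 2.89 and 0.79, Nr4a2 by 2.33 and -0.06, Krt6a by -3.81 and 0.43, and Epgn by -4.74 and -0.98.

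Cells of the basal gate from the same genotypes and times differed between the origins in 1753 genes (13.3%), 679 higher (5.16%) and 1074 lower (8.17%) in K5PIK. Of the 1080 luminal-gate genes 941 (87.1%) had the same sign there, 239 of the 282 higher and 702 of the 798 lower. The median of all genes there was 0.02, and their same-sign share was not computed. Of the 941, 383 were called in the same direction, which is 35.5% of the luminal-gate calls and 21.8% of the basal-gate calls. They were 67 higher and 316 lower genes, and 9 others were called in opposite directions. The labels do not say whether the gates were sorted from the same mice. Inhba (-3.58), Krt6a (-3.69), Il33 (-4.62), Epgn (-2.92) and Itgb6 (-2.71) were lower in K5PIK cells of the basal gate too. The AP-1 list had 10 of 13 genes higher there (median 1.01), beside 5.16% of all genes. The ribosome assembly list had 23 of 49 lower, beside 8.17% of all genes. The actin and focal adhesion list had 1 higher and 5 lower of 38. The last 2 lists were written after the values were seen, so they cannot be used to compare the gates.

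The basal keratins did not pass in that gate, with -0.15 for Krt5 and -0.20 for Krt14 (adjusted p = 0.801 and 0.729). The test of the difference between gates passed for 72 genes (0.548%), 30 above 0 (0.228%) and 42 below (0.319%). Foxa1 (15375) had the largest, 4.56 ± 0.55 (adjusted p = 0.00378). It read 3.76 and 3.72 in K5PIK basal-gate cells, against 7.89 and 8.04 in K8PIK basal-gate cells, while the luminal gates did not pass. Normal YFP basal cells read 3.84 to 4.96, below both K8PIK arrays. Usp2 (2.40), Bco2 (2.52) and Fbn2 (1.41) had a higher difference in the luminal gate, and Klk6 (-2.10) and Car6 (-1.39), a secreted carbonic anhydrase, a lower one. In the luminal gate Car6 read 3.80 and 3.59 in K5PIK against 5.12 and 4.78 in K8PIK cells. Genes such as Brinp3 (-3.34), Speer4b (-3.08), Ebf4 (-2.55), Nipal4 (3.87), Stac (2.65) and Alcam (2.90) were called between the basal gates and not between the luminal gates. Some were too dim in the luminal gate for a difference to be seen there. Luminal K5PIK and K8PIK means were 2.99 and 2.85 for Brinp3, 2.82 and 2.76 for Speer4b, 2.88 and 3.21 for Ebf4. Those of Stac were 3.22 and 3.30. All of these lay below the 40th percentile of the arrays (3.89 to 3.99).

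**Figure D5:**
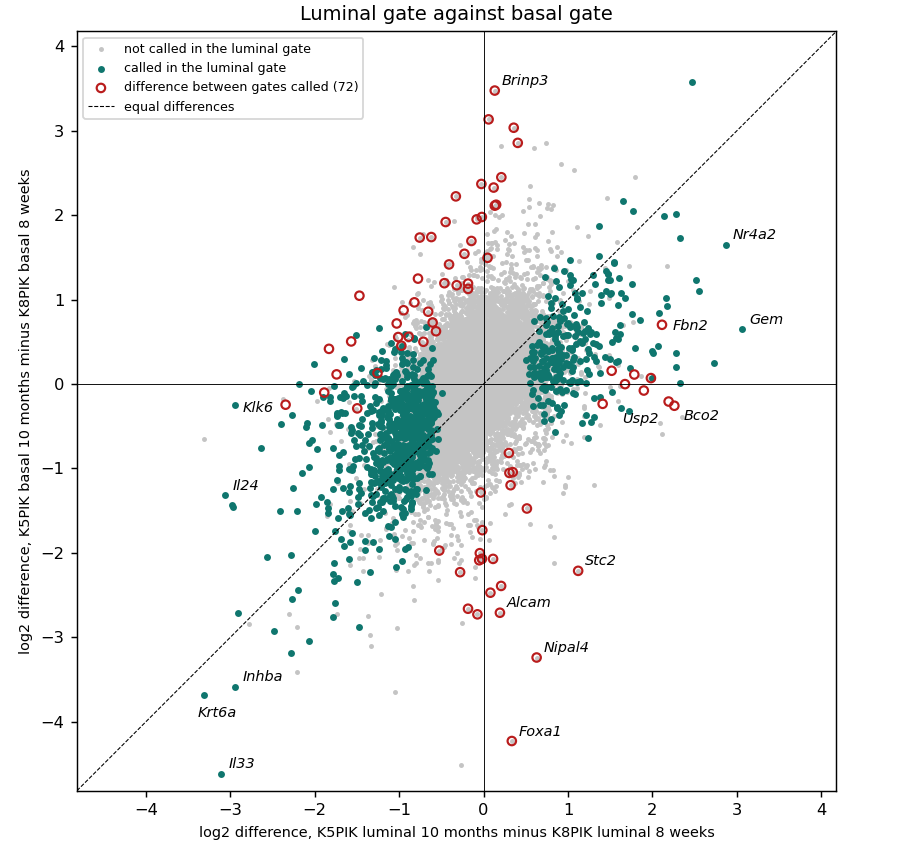
Difference between K5PIK and K8PIK cells (log2) in the luminal gate and in the basal gate for the genes tested. The 72 circled genes are those whose difference varies with the gate in the fit, with Foxa1 differing in the basal gate and Usp2 in the luminal gate.

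Genes that separate the normal layers were used as a scale. The differences that define it are between YFP groups. The dim filter and the spread behind its calls came from all 16 sorted arrays, the PIK arrays among them, so the sets are not independent of these. Of 1244 genes higher in YFP basal than luminal cells at 10 months by at least 2-fold, 39 (3.14%) were higher and 114 (9.16%) lower in K5PIK luminal cells, with a median of -0.17. Of 1798 genes higher in YFP luminal cells, 26 (1.45%) were higher and 132 (7.34%) lower, with a median of -0.24, beside 2.14% and 6.07% of all genes. Sets from 8-week YFP cells gave another split for the basal genes: 38 of 829 (4.58%) were higher and 44 (5.31%) lower, with a median of -0.04, while 16 of 1252 luminal genes (1.28%) were higher and 124 (9.90%) lower. Scaled so that normal luminal cells lie at 0 and normal basal cells at 1, the basal genes put K5PIK arrays at 0.15 and 0.01, against 0.27 and 0.09 for K8PIK arrays. The luminal genes put K5PIK arrays at 0.41 and 0.15, against 0.14 and 0.13 for K8PIK arrays. K5PIK replicate 1 stood apart on the luminal genes, and the other 3 arrays were close together. On the 8-week scale the basal genes gave 0.20 and 0.05 for K5PIK, against 0.26 and 0.03 for K8PIK arrays, and the luminal genes 0.61 and 0.30, against 0.26 and 0.23.

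Tumours of the 2 origins differed in no gene after adjustment (limma, 13244 genes tested, 0%; 1225 at an unadjusted p under 0.05), with 3 K5PIK and 7 K8PIK tumours. Among genes named in the luminal comparison, Pianp had the lowest p, with 7.09, 7.11 and 7.27 in K5PIK tumours and 3.83 to 7.03 (median 5.58) in K8PIK tumours (1.75 ± 0.67, adjusted p = 0.496). The groups did not overlap in Pianp, whose luminal-gate difference was 2.47. For Il17b the K5PIK tumours ran from 8.64 to 9.89 (median 8.70) and the K8PIK tumours from 4.68 to 9.72 (median 7.41), a difference of 1.46 that did not pass (adjusted p = 0.637). Klk10 was on the opposite side in tumours, at 1.46, and Krt16 (-0.83), Mrnip (0.92) and Pygm (0.49) were on the same side as in the luminal gate, none of them past the threshold. Krt5 ranged from 9.56 to 10.03 in K5PIK and from 6.86 to 11.94 in K8PIK tumours, so the K8PIK span exceeded the difference between the luminal groups. Of 1071 luminal-gate genes also tested in tumours 792 (73.9%) had the same sign, 178 of 278 higher and 614 of 793 lower. The median of all genes in tumours was -0.09, and their same-sign share was not computed. The differences correlated at 0.247 across 12845 genes.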

How the data were processed

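Total RNA of sorted cells was hybridised to Affymetrix arrays, and the deposited table of the authors holds log2 values of 45141 probe sets on 28 arrays. The submitters' processing notes name R 2.14.0; background correction and normalization are not given in the sources used here. Values ran from 1.67 to 12.7, array medians from 4.40 to 4.50, and arrays differed by at most 0.558 at one rank, so no scaling was added. Arrays report no counts, so precision is limited by their number.

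Of 29449 annotated probe sets 28898 had 1 symbol, 551 had several and were left out, and 15692 had no entry; 28689 matched RefSeq (GRCm38.p6) by gene identifier. The brightest probe set on average stood for each of 17097 genes (7180 had several). Probe sets of Nr4a2, Inhba, Bmp7, Car8, Scara5, Cyp1b1, Pgr, Pik3ca, Sox9 and Trp63 disagreed. Genes above the array's 40th percentile (3.89 to 3.99) on at least 2 arrays were tested with limma 3.58.1 in R 4.3.3, 1 mean per group, over the 16 sorted arrays or the 12 tumour arrays, with Benjamini-Hochberg adjusted p under 0.05. The code was tested on simulated data. Some genes are not analysed here.

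The members, lists and tests were chosen with earlier results of these data known, and 5 lists were added after values were seen. Genes were named by rule: the 15 largest rises and falls with groups not overlapping, up to 4 called members of each list, fixed lineage genes and, for the 2 tests of differences between contrasts, the 5 largest of each sign; members of added lists, Myh11, Itgb4, Itga6, Mki67, Cd3e, Egr1, Fosb, Nfe2l3 and Cacng5 and the 8 genes of the time comparison were named after their values were seen. Alternatives were all 28 arrays, only the groups compared, the mean of probe sets, no dim filter, quantile normalization, a trend with a robust prior, a replicate block, and each replicate left out; a group of 1 array is then assumed to vary like the others.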

Additional observations from a re-analysis of the deposited data

Results flagged for a closer look

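The difference between origins in the luminal gate departed from the change over time in normal luminal cells for 11 genes. By a test of the difference itself these were Il24 (-3.58), Klk6 (-2.24), S100a14 (-1.93) and Cntn1 (-1.92) below 0 and Wfdc12 (2.73), Hba-a1 (2.69), Hbb-b2 (2.51), Fbn2 (2.10), Cstdc2 (1.79), Nfe2l3 (1.74) and Cacng5 (1.52) above it, all on the log2 scale. Wfdc12 read 6.93 and 6.21 in K5PIK and 5.93 and 5.23 in K8PIK cells, with 5.57 and 5.48 in 10-month and 7.45 and 7.10 in 8-week YFP cells. Cstdc2 read 7.56 and 6.89 in K5PIK and 5.62 and 5.25 in K8PIK cells, and 4.57 to 4.61 on the YFP arrays. Cacng5 read 4.89 and 4.98 in K5PIK luminal cells and passed the dim filter only through them.

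The difference between origins varied with the gate for 72 genes. The largest among those with a higher difference in the luminal gate were Foxa1 (4.56), Nipal4 (3.87), Stc2 (3.33), Alcam (2.90) and Stac (2.65), and Bco2 (2.52), Usp2 (2.40), Cstdc2 (1.67) and Fbn2 (1.41) were also there. Those with a lower one were Brinp3 (-3.34), Speer4b (-3.08), Speer4cos (-2.68), Ebf4 (-2.55), Cyp1b1 (-2.52), Klk6 (-2.10) and Car6 (-1.39). Speer4b and Speer4cos belong to a multigene family whose members may share probes. Among the 7 K8PIK tumours no array was flagged as far from the others in the 6 genes looked at. That does not make these tumours alike: Sox10 ran from 3.95 to 9.78 (median 9.12) in them.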

How the results depend on the processing

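Counts of calls moved with the choice of arrays. With all 28 arrays in 1 fit they were 189 between origins in the luminal gate, 2 over time, 1 for origin minus time, 100 for K5PIK and 4 for K8PIK against YFP cells, 614 in the basal gate and 0 by gate; with only the groups compared they were 0, 1 for origin minus time, 65, 7, 1101 and 7 by gate. Quantile normalization gave 20 calls over time and 29 for origin minus time, the trend with a robust prior 27 and 28, the mean of probe sets 21 and no dim filter 4 for origin minus time. Leaving out 1 array gave 302 to 1006 calls between origins, 0 to 8 over time, 0 to 138 for origin minus time, 119 to 1338 for K5PIK and 6 to 58 for K8PIK against YFP cells, 427 to 1473 in the basal gate, 23 to 245 by gate and 0 to 1 in tumours. Of the 71 named genes called between origins, 13 were still called with all 28 arrays and 0 with only the groups compared. Krt5, Krt14 and Col17a1 were not called in either setting. Normal lineage sets at 4-fold held 838 genes.

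The labels do not pair same-numbered samples. Deviations of luminal replicates of 1 number correlated at 0.08 between K5PIK and K8PIK, 0.21 between K5PIK and 10-month YFP, 0.0047 between K8PIK and 8-week YFP and 0.16 between the YFP groups, and at 0.067 between the basal-gate PIK groups. With the replicate number as a block, calls were 1360 between origins, 23 over time, 46 for origin minus time, 70 for K8PIK against YFP cells, 140 by gate and 150 in tumours.

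Of 71 named genes called between origins, 26 were called with any 1 of the 4 arrays left out, and 64 after quantile normalization; none changed sign under any setting run. Uncalled genes that did were Pgr (-0.43 with the mean of probe sets) and, over fits with 1 array left out, Pgr (-1.34 to 1.58, called lower without K5PIK replicate 2 and higher without replicate 1), Alcam (-0.073 to 0.46), Brinp3 (-0.038 to 0.30), Elf5 (-0.44 to 0.62), Esr1 (-0.48 to 0.70), Foxa1 (-0.29 to 0.96) and Speer4b (-0.058 to 0.18). The cause was not tested.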
